A study of Sus scrofa with 20 samples.

Results

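The genes described here are 7 of the 22059 Ensembl genes listed for boar testis. They comprise the matrix metalloproteases MMP2 (ENSSSCG00000002829) and MMP19 (ENSSSCG00000000368), the ADAMTS proteases ADAMTS4 (ENSSSCG00000006359) and ADAMTS9 (ENSSSCG00000011496), and the membrane-anchored protease ADAM33 (ENSSSCG00000007145). The last 2 are the tissue inhibitors of metalloproteases TIMP1 (ENSSSCG00000012277) and TIMP3 (ENSSSCG00000000155). All 7 were chosen by their measured difference between groups of boars set apart by the DNA fragmentation index (DFI) of their sperm, the share of sperm whose DNA denatures under acid. MMP2, MMP19, ADAMTS9 and TIMP1 were chosen in Landrace, and ADAMTS4, ADAM33 and TIMP3 in Duroc. In the breed that chose a gene, its high against low DFI values are therefore given as a description without a test. The other breed was not used in the choice and was tested. The difference between the breeds was also tested. It was not itself the ground of the choice, but it uses the same boars and is not fully free of it. All 7 genes were listed in both breeds, and all 7 passed the filter on low counts in every comparison.

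Testis tissue of 20 artificial insemination boars, for which the labels name no treatment, was sequenced with 1 library per boar. The 9 Norsvin Landrace boars comprised 5 with low DFI (0.62 to 1.7%, named LL1 to LL5) and 4 with high DFI (5.58 to 8.04%, LH1 to LH4). Among the 11 Norsvin Duroc boars, 5 had low DFI (1.05 to 1.13%, DL1 to DL5) and 6 had high DFI (4.13 to 5.63%, DH1 to DH6). The DFI values are those of the labels, and the study's own table gives other values for some boars. The boars are numbered within a group in the order of the sample records, and the age of each boar at sampling is not given in the sources used here. The boars were picked for extreme DFI rather than assigned to a group, and nothing in the labels pairs boars across groups.

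Matrix metalloproteases are zinc-dependent enzymes that cut collagens, laminins and other proteins of the extracellular matrix. The ADAMTS proteases are secreted relatives that cut the large proteoglycans, and the ADAM proteases are anchored in the membrane and release the outer parts of other membrane proteins. TIMP proteins bind the active site of these enzymes and block it. TIMP1 acts mainly on the secreted matrix metalloproteases, whereas TIMP3 stays bound to the matrix and also inhibits several ADAM and ADAMTS proteases. In the testis, this enzyme system is known for remodelling the basement membrane of the seminiferous tubules and the junctions through which germ cells move towards the lumen.

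Between 18086448 (LH1) and 51782156 reads per library were counted on genes. The marker lists used to check the tissue were present in every library, with summed spermatid markers of 12977 to 22373 counts scaled to a common library size (CPM). Blood markers summed to 2.18 to 20.6 CPM in the Landrace and 1.13 to 3.91 CPM in the Duroc boars, led by HBB. In Landrace, 6 boars (LL1, LL2 and LH1 to LH4) carried consecutive sample numbers, whereas LL3, LL4 and LL5, all of low DFI, carried other numbers whose meaning is not stated. Landrace values are therefore also given for the 6 boars. The Duroc boar DH4 stood apart from the other boars of its group, with a Sertoli cell marker sum of 539 CPM against 296 to 350 CPM and a spermatid marker sum of 12977 CPM against 16033 to 18299 CPM. Its Leydig cell marker sum was 3428 CPM against 4414 to 7064 CPM, and its macrophage marker sum 87.4 CPM against 48.8 to 66.5 CPM. The Landrace boar LH2 stood above its group in Leydig cell markers, at 12048 CPM against 4575 to 6984 CPM, and in endothelial markers, at 98.3 CPM against 42.6 to 60.1 CPM. In bulk RNA of a whole tissue piece, fewer cells of a type and less RNA per cell cannot be told apart.

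All 7 genes had a higher fitted level in the high than in the low DFI boars of both breeds. In the breed that chose a gene, this direction was fixed by the choice. Without those, the median log2 fold change (logFC) was 0.62 over the 3 genes that Landrace had not chosen and 0.48 over the 4 that Duroc had not chosen, beside a median over all genes of -0.01 and 0.01. Of the 3 genes that Landrace did not choose, 0 passed 0.05 after adjustment (quasi-likelihood test of edgeR), and all 3 (ADAMTS4, ADAM33 and TIMP3) had an unadjusted p under 0.05. Over all 14519 genes tested in Landrace, 0% passed the adjusted and 16.6% the unadjusted threshold. Of the 4 genes that Duroc did not choose, 0 passed the adjusted threshold and 1 (MMP2) the unadjusted threshold, against 0.0136% and 21.2% of 14666 genes. With the likelihood ratio test, whose calls made up 5.28% (Landrace) and 2.56% (Duroc) of the genes, 1 of the 3 Landrace genes (ADAMTS4) and 0 of the 4 Duroc genes passed. DESeq2 and limma called none of these 7 breed and gene pairs.

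**Figure D1:**
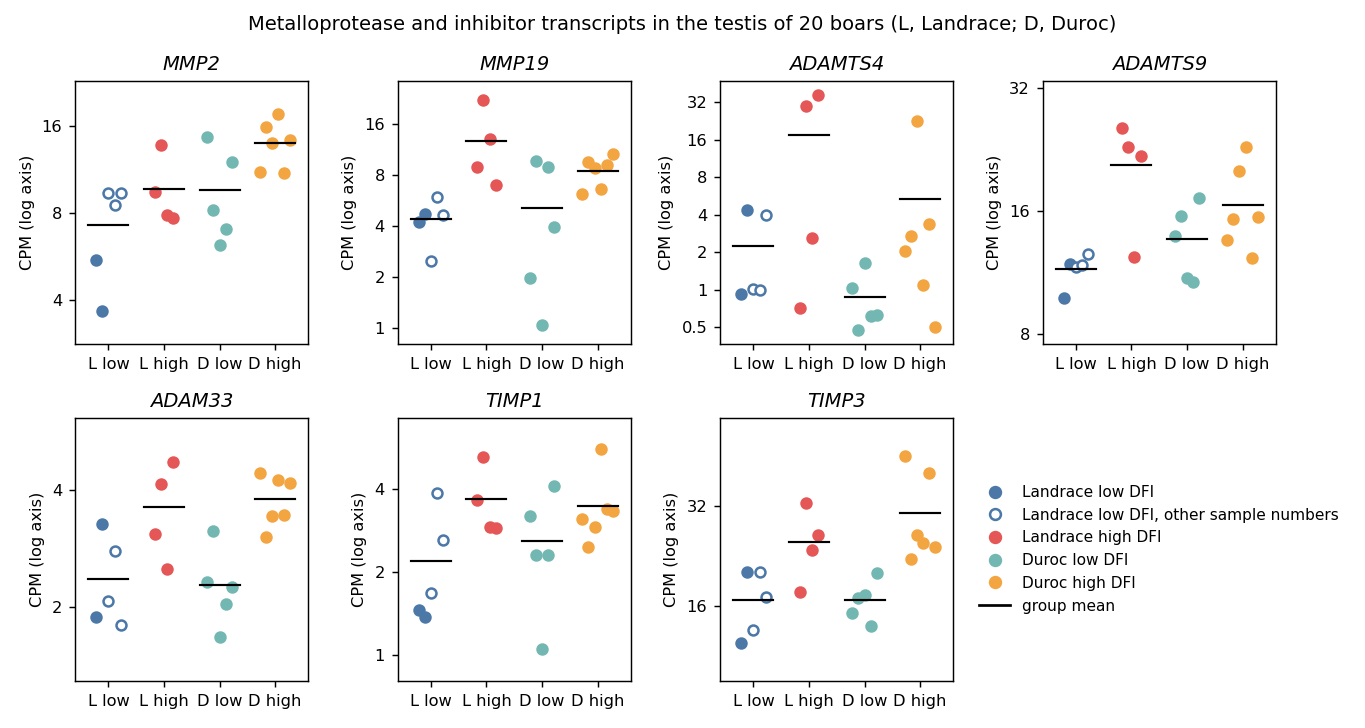
CPM of the 7 genes (log axis) in each of the 20 boars, by breed and DFI group, with a line at the group mean and open points for the Landrace low boars with other sample numbers. The groups of a breed were fully apart only for MMP19 in Landrace and TIMP3 in Duroc, and ADAMTS4 reached 22.6 to 36.6 CPM in 3 high DFI boars.

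MMP2, the gelatinase that cuts denatured collagen and collagen IV of basement membranes, was one of the genes chosen in Landrace. In the low DFI group it was measured at 5.47 CPM (LL1), 3.64 CPM (LL2), 9.37 CPM (LL3), 8.51 CPM (LL4) and 9.33 CPM (LL5). The high DFI group had 9.45 CPM (LH1), 13.7 CPM (LH2), 7.86 CPM (LH3) and 7.65 CPM (LH4). The groups overlapped, and only LL1 and LL2, the low boars that share the consecutive numbers of the high group, lay below every high DFI boar. The group means were 7.27 ± 2.58 CPM (SD, n = 5) and 9.67 ± 2.82 CPM (SD, n = 4), with a logFC of 0.41 (SE 0.28) over the 9 boars and of 1.10 (SE 0.30) over the 6 boars with consecutive numbers. Without LH2 it was 0.19 (SE 0.29). The number series and the DFI group cannot be told apart in LL3, LL4 and LL5.

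Duroc had no part in the choice of MMP2. The low DFI boars had 14.6 CPM (DL1), 8.17 CPM (DL2), 6.21 CPM (DL3), 7.02 CPM (DL4) and 11.97 CPM (DL5), and the 6 high DFI boars ranged from 10.95 CPM (DH5) over a median of 14.1 CPM to 17.6 CPM (DH4). All 6 high DFI boars were above the median of the low group, and 3 of the 5 low DFI boars were below every high DFI boar. The logFC was 0.54 (SE 0.22), a 1.45-fold difference, with an unadjusted p of 0.0288 and an adjusted p of 0.192 in edgeR's quasi-likelihood test. Without DH4 the logFC was 0.46 (SE 0.22), and it was 0.42 without DL3 and 0.74 without DL1.

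MMP19, which cuts collagen IV, laminin and nidogen of basement membranes, was also chosen in Landrace and was fully separated there. The low DFI boars had 4.23 CPM (LL1), 4.73 CPM (LL2), 2.50 CPM (LL3), 5.97 CPM (LL4) and 4.69 CPM (LL5), and the high DFI boars 8.90 CPM (LH1), 22.1 CPM (LH2), 13.1 CPM (LH3) and 7.01 CPM (LH4). Every high DFI boar was above every low DFI boar, as for 4.45% of all genes. The means were 4.424 ± 1.253 CPM (SD, n = 5) and 12.8 ± 6.72 CPM (SD, n = 4), and the logFC was 1.54 (SE 0.33), or 1.52 (SE 0.45) over the 6 boars with consecutive numbers. Leaving out LH2 lowered it to 1.13 (SE 0.27).

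In Duroc, the low DFI group split widely in MMP19. The level was 1.98 CPM (DL1), 1.05 CPM (DL3) and 3.97 CPM (DL5) in 3 low DFI boars, but 9.71 CPM (DL2) and 8.92 CPM (DL4) in the other 2, which lay within the high DFI range of 6.16 CPM (DH1) to 10.7 CPM (DH6, median 9.02 CPM). The logFC was 0.72 (SE 0.46) and the difference did not pass the test (quasi-likelihood, adjusted p = 0.380). It was 0.46 (SE 0.37) without DL3 and 1.10 (SE 0.46) without DL2.

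MMP19 moved with the Leydig cell markers. These are genes of the testosterone-producing interstitial cells, and 5 of 7 listed markers were measured, led by CYP17A1, INSL3 and CYP11A1. Their summed level was 1330 to 4199 CPM in Landrace low, 4575 to 12048 CPM in Landrace high, 859 to 6008 CPM in Duroc low and 3428 to 7064 CPM in Duroc high boars. Over the 20 boars, the Spearman correlation of MMP19 with this sum was 0.95, and it was 0.93 after the group means were subtracted. MMP19 itself varied 21.1-fold over the boars, but 1.64-fold when expressed per 1000 CPM of Leydig markers. On that scale the boars lay between 1.17 and 1.92, with group medians of 1.52 in Landrace low, 1.77 in Landrace high, 1.48 in Duroc low and 1.48 in Duroc high. This pairing was picked after the correlations were seen, all values share the libraries, and the part of the Leydig markers in the MMP19 difference was not tested.

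**Figure D2:**
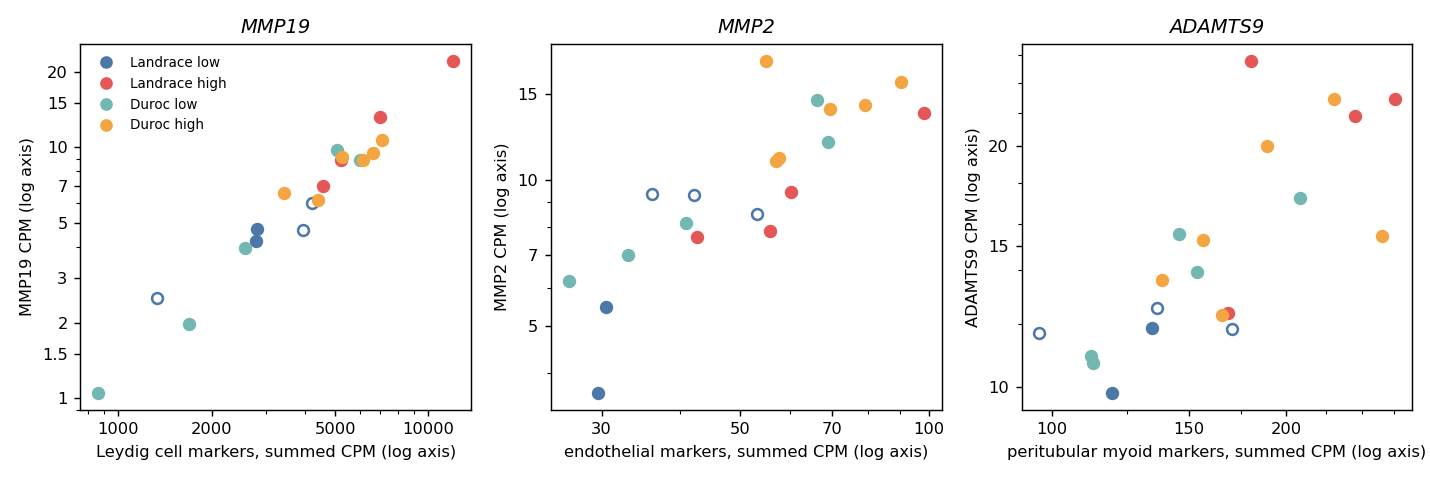
CPM of MMP19, MMP2 and ADAMTS9 (log axis) against the summed CPM (log axis) of Leydig cell, endothelial and peritubular myoid markers, 1 point per boar, coloured by breed and DFI group, open for the Landrace low boars with other sample numbers. The boars line up most closely for MMP19 and the Leydig cell markers (Spearman 0.95), followed by MMP2 and the endothelial markers (0.83) and ADAMTS9 and the myoid markers (0.81).

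ADAMTS4, an aggrecanase that cuts the proteoglycans aggrecan, versican and brevican, was chosen in Duroc. Its level was at most 1.65 CPM in the Duroc low DFI boars, with 1.04 CPM (DL1), 0.477 CPM (DL2), 1.65 CPM (DL3), 0.622 CPM (DL4) and 0.626 CPM (DL5). The high DFI boars had 2.05 CPM (DH1), 2.70 CPM (DH2), 22.6 CPM (DH3), 1.10 CPM (DH4), 3.39 CPM (DH5) and 0.505 CPM (DH6). A single boar, DH3, carried most of the difference. The logFC was 2.60 (SE 0.89), and without DH3 it was 1.14 (SE 0.48).

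The Landrace boars, not used in its choice, had the same uneven pattern of ADAMTS4. The low DFI boars had 0.932 CPM (LL1), 4.35 CPM (LL2), 1.02 CPM (LL3), 0.995 CPM (LL4) and 3.98 CPM (LL5), and the high DFI boars 0.719 CPM (LH1), 29.8 CPM (LH2), 2.62 CPM (LH3) and 36.6 CPM (LH4). LH2 and LH4 were far above every low DFI boar, whereas LH1 was below all of them. The means were 2.25 ± 1.75 CPM (SD, n = 5) and 17.4 ± 18.4 CPM (SD, n = 4). The logFC of 2.95 (SE 0.93), a 7.75-fold difference, had an unadjusted p of 0.00918 and an adjusted p of 0.144 in the quasi-likelihood test, against 0.00458 in the likelihood ratio test and 0.0696 with DESeq2, and limma gave a logFC of 2.12 with an adjusted p of 0.391. The 6 boars of the consecutive series gave 2.73 (SE 1.47, adjusted p = 0.462). The counts behind these levels were 13 to 1430 reads per boar, which is a wide range beside the counting error of such counts. On CPM scaled by library size alone, only LL2, LL5, LH2, LH3 and LH4 met the filter on low counts. That is the smallest number of Landrace boars it allows, so ADAMTS4 was kept in part through the group where it was high.

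ADAMTS9, which cuts aggrecan and versican and is expressed in stromal and vascular cells, was chosen in Landrace. The low DFI boars lay close together, at 9.83 CPM (LL1), 11.9 CPM (LL2), 11.7 CPM (LL3), 11.8 CPM (LL4) and 12.6 CPM (LL5). The high DFI boars had 25.6 CPM (LH1), 22.9 CPM (LH2), 12.4 CPM (LH3) and 21.8 CPM (LH4). LH3 overlapped the low group and the other 3 high DFI boars did not. The logFC was 0.84 (SE 0.19), and 0.94 (SE 0.29) over the 6 boars.

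In Duroc, ADAMTS9 was 13.9 CPM (DL1), 15.5 CPM (DL2), 10.9 CPM (DL3), 10.7 CPM (DL4) and 17.2 CPM (DL5) in the low DFI boars, and 12.3 CPM (DH5) to 22.9 CPM (DH4) with a median of 15.4 CPM in the high DFI boars. The groups overlapped over most of their range. The logFC of 0.28 (SE 0.18) did not pass the test (quasi-likelihood, adjusted p = 0.384). Without DH4 it was 0.16 (SE 0.16).

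ADAM33, a membrane-anchored protease of smooth muscle cells and fibroblasts, was chosen in Duroc. It was measured at 2.32 CPM (DL1), 3.14 CPM (DL2), 1.68 CPM (DL3), 2.04 CPM (DL4) and 2.26 CPM (DL5) in low DFI boars and at 3.04 CPM (DH2) to 4.43 CPM (DH1), with a median of 3.81 CPM, in high DFI boars. Of the 6 high DFI boars, 5 were above every low DFI boar, and DL2 reached into the high range. The logFC in Duroc was 0.72 (SE 0.16).

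In Landrace, ADAM33 was 1.89 CPM (LL1), 3.29 CPM (LL2), 2.08 CPM (LL3), 2.79 CPM (LL4) and 1.80 CPM (LL5) at low DFI and 3.10 CPM (LH1), 4.16 CPM (LH2), 2.50 CPM (LH3) and 4.73 CPM (LH4) at high DFI. All 4 high DFI boars were above the median of the low group, and 2 of them above all of it. The logFC was 0.62 (SE 0.24), with an unadjusted p of 0.0256 and an adjusted p of 0.223 in the quasi-likelihood test. Over the 6 boars it was 0.50 (SE 0.34, adjusted p = 0.566). With 56 to 205 reads per boar, ADAM33 was the gene of the set with the fewest reads at its highest.

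TIMP1, the secreted inhibitor of most matrix metalloproteases, was chosen in Landrace. The low DFI boars had 1.46 CPM (LL1), 1.37 CPM (LL2), 1.68 CPM (LL3), 3.85 CPM (LL4) and 2.61 CPM (LL5), and the high DFI boars 3.65 CPM (LH1), 5.20 CPM (LH2), 2.90 CPM (LH3) and 2.89 CPM (LH4). Of the 5 low DFI boars, 4 lay below every high DFI boar, and LL4 reached into the high range. The logFC was 0.74 (SE 0.32) over 9 boars and 1.38 (SE 0.31) over the 6 boars with consecutive numbers. As for MMP2, the low boars of the consecutive series, at 1.42 ± 0.0636 CPM (SD, n = 2), had less than those with other numbers, at 2.71 ± 1.09 CPM (SD, n = 3).

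In Duroc, TIMP1 was 3.19 CPM (DL1), 2.30 CPM (DL2), 1.05 CPM (DL3), 2.31 CPM (DL4) and 4.11 CPM (DL5) in low DFI boars, and 2.46 CPM (DH2) to 5.56 CPM (DH4), with a median of 3.22 CPM, in high DFI boars. The groups overlapped, although all 6 high DFI boars were above the median of the low group. The logFC was 0.41 (SE 0.30, adjusted p = 0.440 in the quasi-likelihood test), and 0.22 (SE 0.28) without DH4. Leaving out a low DFI boar moved it as far, to 0.22 without DL3 and 0.64 without DL5.

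TIMP3, the matrix-bound inhibitor that also blocks ADAM and ADAMTS proteases, was chosen in Duroc and was fully separated there, as 2.02% of all genes were. The low DFI boars had 15.2 CPM (DL1), 16.9 CPM (DL2), 17.3 CPM (DL3), 13.95 CPM (DL4) and 20.1 CPM (DL5). The high DFI boars ranged from 22.2 CPM (DH2) over a median of 25.5 CPM to 40.2 CPM (DH5) and 45.3 CPM (DH1). DH1 and DH5 stood above the other 4, which lay within 22.2 to 26.3 CPM. The logFC was 0.86 (SE 0.19), and 0.72 (SE 0.16) without DH1.

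In Landrace, where it had not been chosen, TIMP3 was 12.4 CPM (LL1), 20.2 CPM (LL2), 13.6 CPM (LL3), 20.3 CPM (LL4) and 17.0 CPM (LL5) at low DFI and 17.7 CPM (LH1), 32.6 CPM (LH2), 23.6 CPM (LH3) and 26.1 CPM (LH4) at high DFI. Only LH1, the smallest library, overlapped the low group. The means were 16.7 ± 3.66 CPM (SD, n = 5) and 25.0 ± 6.18 CPM (SD, n = 4). The logFC of 0.58 (SE 0.19), a 1.50-fold difference, had an unadjusted p of 0.0122 and an adjusted p of 0.159 in the quasi-likelihood test and of 0.0617 in the likelihood ratio test, against 0.0648 with DESeq2. It was 0.63 (SE 0.28, adjusted p = 0.400) over the 6 boars.

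**Figure D3:**
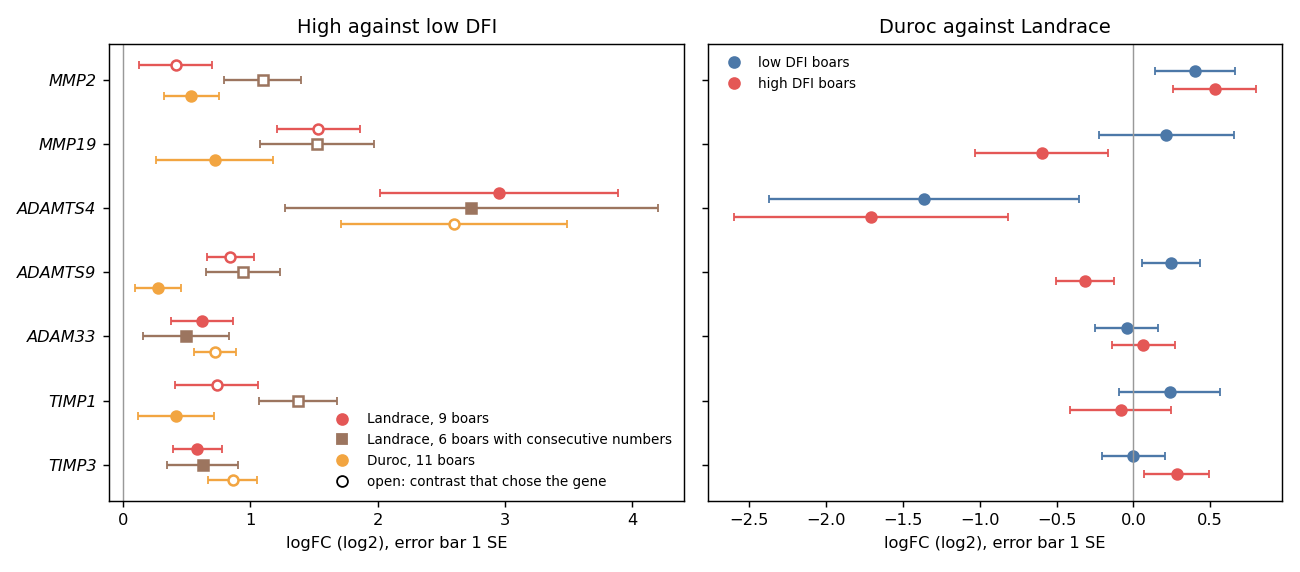
logFC with 1 SE for high against low DFI (left) in Landrace, in the 6 Landrace boars with consecutive numbers and in Duroc, with open symbols where the contrast chose the gene, and for Duroc against Landrace (right) in low and high DFI boars. All values on the left are above 0, from 0.28 to 2.95, and those on the right lie on both sides of 0.

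The next question was whether the breeds differed in these genes within the low and within the high DFI group. The high DFI groups themselves differed in DFI, at 5.58 to 8.04% in Landrace and 4.13 to 5.63% in Duroc. Breed and DFI cannot be fully told apart there. None of the 7 passed the quasi-likelihood test between Duroc and Landrace, with 0 of 7 at an adjusted p under 0.05 and 0 of 7 at an unadjusted p under 0.05, at low and at high DFI alike. Over the 14636 genes tested, 4.92% passed the adjusted and 18.8% the unadjusted threshold at low DFI, and 5.73% and 23% at high DFI. The likelihood ratio test, DESeq2 and limma also called 0 of 7 in both comparisons.

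MMP2 was the gene closest to a higher level in Duroc, with a logFC of 0.40 (SE 0.26, adjusted p = 0.451) at low and 0.53 (SE 0.27, adjusted p = 0.252) at high DFI. At low DFI this fell to 0.08 (SE 0.25) when only the Landrace low boars with other numbers were used. ADAMTS4 was lower in Duroc, with a logFC of -1.36 (SE 1.01, adjusted p = 0.520) at low and -1.71 (SE 0.89, adjusted p = 0.261) at high DFI. Its value at high DFI depended on single boars, with -3.17 (SE 0.81, adjusted p = 0.0324) without DH3, -1.06 (SE 0.96, adjusted p = 0.550) without LH4 and -1.33 (SE 0.97, adjusted p = 0.476) without LH2. For TIMP3 the logFC was 0.00 (SE 0.20) at low and 0.28 (SE 0.21, adjusted p = 0.453) at high DFI. ADAM33 differed by -0.04 (SE 0.21) and 0.06 (SE 0.21), and TIMP1 by 0.24 (SE 0.33) and -0.08 (SE 0.33). The difference between the breeds in MMP19 was 0.21 (SE 0.44) at low and -0.60 (SE 0.43, adjusted p = 0.439) at high DFI, the latter -0.19 (SE 0.46) without LH2, and in ADAMTS9 it was 0.24 (SE 0.19) and -0.31 (SE 0.19, adjusted p = 0.341).

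Ratios of a protease to an inhibitor in the same boar do not depend on library size, and 10 were formed from the 5 proteases and both inhibitors. In all, 15 tests were made, between the breeds and between DFI groups where neither gene had been chosen. Those between the breeds share boars with the choice. After Benjamini-Hochberg adjustment, 0 of these 15 exact permutation tests passed 0.05, with 1 at an unadjusted p under 0.05. That 1 was MMP2 over TIMP1 between the breeds. Its log2 ratio was 1.99 ± 0.391 (SD, n = 11) in Duroc and 1.59 ± 0.406 (SD, n = 9) in Landrace, a difference of 0.42 within DFI groups (1.33-fold, exact two-sided permutation test within DFI groups, p = 0.0370, adjusted p = 0.463). All 11 Duroc boars were above the Landrace median, and 2 were above every Landrace boar. The 4 Landrace high DFI boars had nearly 1 value, between 1.37 and 1.44, whereas the Landrace low boars spread from 1.14 (LL4) to 2.47 (LL3).

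The other ratio with a small unadjusted p was ADAMTS4 over TIMP3, which was lower in Duroc by 1.42 on the log2 scale (exact two-sided permutation test, p = 0.0617, adjusted p = 0.463). Between high and low DFI in Landrace, ADAMTS4 over TIMP3 differed by 1.38 (exact permutation test, p = 0.286, adjusted p = 0.548), and by 0.60 without LH4 to 2.28 without LH1. ADAM33 over TIMP3 differed by 0.04 (exact permutation test, p = 0.849), with 0.244 to 0.371 as the SD within the groups. In Duroc, the ratio to TIMP1 differed between high and low DFI by 0.10 for MMP2 (exact permutation test, p = 0.690), by 0.66 for MMP19 (p = 0.292, exact permutation test) and by -0.23 for ADAMTS9 (p = 0.442, exact permutation test). ADAMTS9 over TIMP3, given without a test, was 0.55 lower at high DFI in Duroc, where TIMP3 had been chosen.

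**Figure D4:**
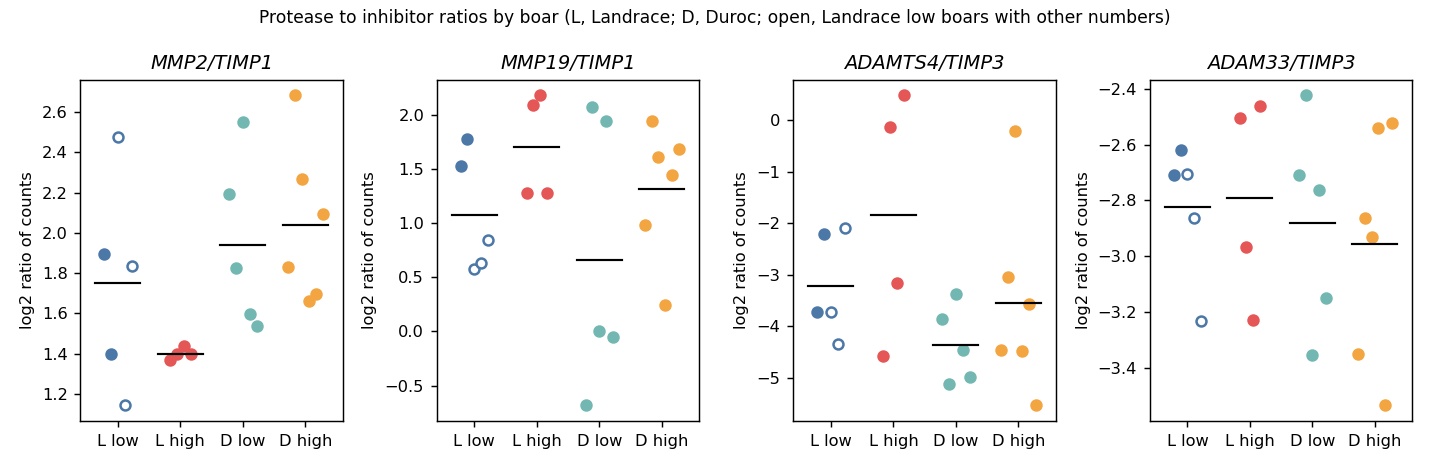
Log2 ratio of protease to inhibitor counts in each boar for 4 of the 10 pairs, by breed and DFI group, with a line at the group mean and open points for the Landrace low boars with other sample numbers. The 4 Landrace high DFI boars coincide at 1.37 to 1.44 for MMP2 over TIMP1, and ADAMTS4 over TIMP3 spans the widest range, from -5.54 (DH6) to 0.48 (LH4).

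Among themselves, the 7 genes did not vary as 1 block. The highest Spearman correlation of CPM over the 20 boars was that of ADAM33 with TIMP3 (0.81, and 0.48 after subtracting the group means), followed by MMP2 with TIMP1 (0.67 and 0.64). ADAMTS4 had correlations between -0.01 and 0.32 with 5 of the genes and 0.56 with TIMP3. MMP19 was likewise little related to MMP2 (0.21) and TIMP1 (0.29). The points share library and sequencing depth and are given as a description.

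The genes most alike in pattern over the 20 boars, out of 14636, differed from gene to gene. For MMP2 they were TGFBR2, a receptor of transforming growth factor beta (Spearman 0.94), IGFBP7, a binding protein of insulin-like growth factors (0.93), and ENSSSCG00000029421 (0.92). For MMP19 they were ENSSSCG00000029384 (0.97), OGDH, a subunit of the 2-oxoglutarate dehydrogenase complex of mitochondria (0.96), and ENSSSCG00000014087 (0.96). ADAMTS4 was followed most closely by ENSSSCG00000028326 (0.84), the galactosyltransferase gene B4GALT5 (0.83) and the histidine ammonia-lyase gene HAL (0.80).

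For ADAMTS9 the leading genes were CHST3, a sulfotransferase of chondroitin (0.89), ENSSSCG00000027544 (0.89) and ENSSSCG00000024886 (0.89). ADAM33 was most like ARHGAP23 (0.86), the kinase gene DMPK (0.86) and ENSSSCG00000024602 (0.85). For TIMP1 they were the transcription factor gene ELK3 (0.83), the scaffold protein gene NHERF2 (0.83) and the adhesion molecule gene ICAM1 (0.81), and for TIMP3 TBC1D13 (0.90), SLC38A10 (0.88) and CDIPT (0.87). Those of TIMP3 followed it less within groups, with 0.56, 0.42 and 0.42 after the group means were subtracted.

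The sums of some other cell type markers were also shifted between the DFI groups, mostly with overlap. The summed peritubular myoid markers, genes of the contractile cells around the tubules with 6 of 6 measured, were 96.4 to 170 CPM in Landrace low, 168 to 276 CPM in Landrace high, 112 to 208 CPM in Duroc low and 138 to 265 CPM in Duroc high boars. Endothelial markers, with 5 of 7 measured, summed to 29.6 to 53.2 CPM in Landrace low, 42.6 to 98.3 CPM in Landrace high, 26.6 to 69.1 CPM in Duroc low and 55.0 to 90.4 CPM in Duroc high boars. Spermatid markers, with 11 of 11 measured, were 16753 to 21123 CPM in Landrace low, 14517 to 19200 CPM in Landrace high, 17403 to 22373 CPM in Duroc low and 12977 to 18299 CPM in Duroc high boars. The myoid and endothelial sums thus lay higher and the spermatid sum lower at high DFI, and the groups of a breed overlapped in these 3 sums. The spermatogonia and spermatocyte sum, with 7 of 9 measured, also lay lower at high DFI. It was 925 to 1044 CPM in Landrace low and 856 to 971 CPM in Landrace high boars. In Duroc the groups were fully apart, at 900 to 976 CPM (low) and 814 to 877 CPM (high). Fibroblast and stroma markers lay higher at high DFI, with overlap. Their median sums at low and high DFI were 89.4 and 119 CPM in Landrace and 84.2 and 122 CPM in Duroc. The macrophage marker sum did not share this shift in Landrace, at 57.5 to 79.0 CPM in low and 60.8 to 84.7 CPM in high DFI boars. As single genes, however, 4 of 5 macrophage markers had a logFC above 0 there, with a median of 0.60 over the 5. The Sertoli cell marker sum did not share the shift either, at 292 to 361 CPM and 268 to 368 CPM.

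The genes of the set followed different lists. MMP2 had its highest correlation with the endothelial markers (0.83, and 0.82 after subtracting group means). ADAMTS9 (0.81) and TIMP1 (0.80) were closest to the myoid markers, with 0.58 and 0.61 after subtracting group means, where ADAMTS9 had 0.71 with the macrophage markers. TIMP3 had correlations of 0.65 with the myoid and -0.75 with the spermatocyte markers, which were 0.18 and -0.16 within groups. For ADAMTS4 the highest was 0.46, with the macrophage markers. Sertoli cell markers, with 6 of 9 measured at 268 to 539 CPM over all boars, had correlations between -0.36 (MMP19) and 0.28 (ADAMTS4 and TIMP3) with the 7. The part of these cell types in the differences was not tested.

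**Figure D5:**
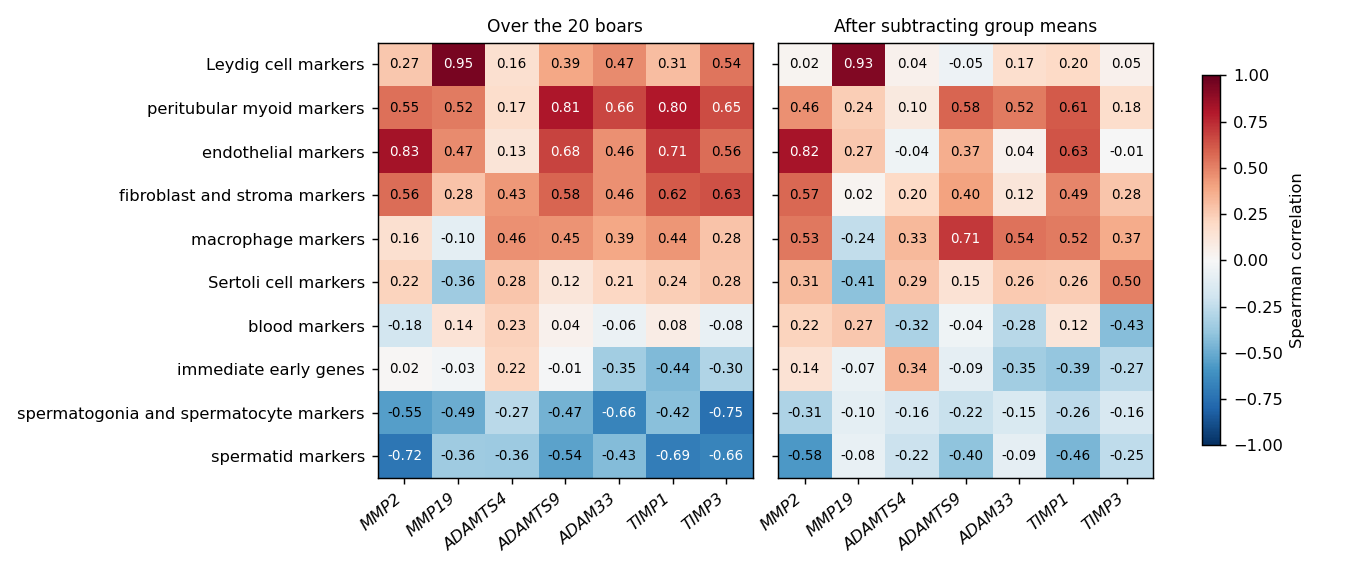
Spearman correlation of the 7 genes (columns) with the summed CPM of 10 marker lists (rows), over the 20 boars (left) and after subtracting the mean of each breed and DFI group (right). MMP19 and the Leydig cell markers stand at 0.95 and 0.93, MMP2 and the endothelial markers at 0.83 and 0.82, and most values of TIMP3 lie nearer to 0 on the right.

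Other members of the enzyme families were compared from lists of genes that exclude the 7. Of 20 other matrix metalloprotease genes, 14 were listed in both breeds and 5 passed the filter (MMP11, MMP13, MMP14, MMP15 and MMP23B), whereas 9 listed genes, among them MMP1, MMP8, MMP9 and MMP12, stayed under 1 CPM in every boar. In all 4 comparisons, 0 of these 5 were called by the quasi-likelihood fit, which called 0% to 5.73% of all genes. Before adjustment, 1 of 5 passed 0.05 and was higher at high DFI in Landrace, against 12.1% of all genes in this direction. It was MMP15, a membrane-type metalloprotease, with a logFC of 0.62 (SE 0.24, adjusted p = 0.216). In Duroc 1 of 5 was lower, against 9.89% of all genes, the collagenase gene MMP13, with a logFC of -0.48 (SE 0.10, adjusted p = 0.112). Between the breeds, 2 of 5 passed before adjustment at low DFI and 0 at high DFI, against 18.8% and 23% of all genes. These were MMP13, at 2.43 (SE 0.76, adjusted p = 0.0687), and MMP15, at 0.58 (SE 0.23, adjusted p = 0.168), both higher in Duroc. MMP14, the membrane-type metalloprotease that activates MMP2 on the cell surface, was 35.96 CPM in DH4 against 14.7 to 16.9 CPM in the other Duroc high DFI boars.

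Of 8 other inhibitors, 5 passed the filter, and 0 were called in any comparison, where 0% to 5.73% of all genes were called. The broad protease inhibitor A2M had a logFC of 0.88 (SE 0.33, adjusted p = 0.202) in Landrace and 1.09 (SE 0.38, adjusted p = 0.151) in Duroc at high DFI, and TFPI2 had 0.76 (SE 0.18, adjusted p = 0.104) and 0.56 (SE 0.27, adjusted p = 0.249). RECK, the membrane-anchored inhibitor, had -0.08 (SE 0.08) in Landrace. SPOCK3 had -0.39 (SE 0.18, adjusted p = 0.320) in Landrace and -0.19 (SE 0.17, adjusted p = 0.554) in Duroc. Of the 5, 2 had a logFC above 0 in Landrace and 4 in Duroc. TIMP2 and TIMP4 could not be matched to a gene here and were not analysed.

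In the ADAMTS family, 2 genes passed the test between the breeds. Of 14 genes tested, 2 had an adjusted p under 0.05 at low DFI and 1 at high DFI, against 4.92% and 5.73% of all genes called in either direction. Those called were higher in Duroc. Counts this small do not set the family apart from all genes. ADAMTSL4, a secreted ADAMTS-like protein without a protease domain that binds microfibrils, was at most 17.8 CPM in the Landrace low and at least 22.9 CPM in the Duroc low boars, without overlap, as 2.66% of all genes were. Its logFC was 1.12 (SE 0.19, adjusted p = 0.00173) at low and 1.11 (SE 0.20, adjusted p = 0.00368) at high DFI. ADAMTS10, which also binds microfibrils, was higher in Duroc by 1.03 (SE 0.19, adjusted p = 0.00230) at low DFI and had 0.56 (SE 0.19, adjusted p = 0.0854) at high DFI. Between DFI groups none was called, out of 15 tested in Landrace and 14 in Duroc, where 0% and 0.0136% of all genes were called. At an unadjusted p under 0.05 there were 5 and 1, against 16.6% and 21.2% of all genes. The procollagen protease ADAMTS2 had a logFC of 0.73 (SE 0.15, adjusted p = 0.0972) in Landrace and 0.68 (SE 0.22, adjusted p = 0.134) in Duroc, and ADAMTS5, the other main aggrecanase, -1.17 (SE 0.41, adjusted p = 0.177) in Landrace. ADAMTS5 lay near the filter of 1 CPM, at 1.01 to 2.01 CPM in Landrace low and 0.299 to 1.27 CPM (median 0.681 CPM) in Landrace high boars. It was thus kept in part through the group where it was high.

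Somatic ADAM genes gave 0 calls of 10 in each of the 4 comparisons, where 0% to 5.73% of all genes were called. In Landrace, 7 of the 10 had a logFC above 0 and 3 below 0. ADAM15 had 0.81 (SE 0.25, adjusted p = 0.138) and ADAM10, a main sheddase, 0.24 (SE 0.11, adjusted p = 0.279), whereas ADAM11 had -0.44 (SE 0.16, adjusted p = 0.180). ADAM genes of sperm take part in sperm maturation and binding to the egg. They gave 0 calls between DFI groups, where 0% (Landrace) and 0.0136% (Duroc) of all genes were called. Their median logFC was -0.17 in Landrace and -0.14 in Duroc, with 0 of 5 above 0 in each breed, where 47.3% and 51.8% of all genes were above 0, and the spermatid marker sum also lay lower at high DFI. The part of the spermatid share in these values was not tested. Between the breeds, ADAM32 was lower in Duroc by -0.46 (SE 0.10, adjusted p = 0.00907) at low and -0.46 (SE 0.10, adjusted p = 0.0105) at high DFI. ADAM18 was higher in Duroc at high DFI, by 0.42 (SE 0.09, adjusted p = 0.0105), and had 0.29 (SE 0.09, adjusted p = 0.0681) at low DFI.

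Substrates and activators had the largest shares at an unadjusted p under 0.05 among these lists. Of the matrix substrates, 13 of 16 in Landrace and 11 of 18 in Duroc had a higher level at high DFI at that threshold, against 12.1% and 11.3% of all genes in this direction, with a median logFC of 0.83 and 0.60, and 0 were called after adjustment. The basement membrane genes LAMB2 and NID2 had a logFC of 0.84 (SE 0.17, adjusted p = 0.0972) and 0.55 (SE 0.11, adjusted p = 0.0972) in Landrace, and of 0.71 (SE 0.22, adjusted p = 0.130) and 0.52 (SE 0.15, adjusted p = 0.123) in Duroc. The summed substrates had a correlation of 0.86 with MMP2 over the 20 boars. Of the activators and receptors, 3 of 7 passed the unadjusted threshold in each breed, all of them higher at high DFI. In Landrace they were the urokinase gene PLAU, at 1.08 (SE 0.23, adjusted p = 0.0972), the TIMP1 receptor gene CD63, at 0.74 (SE 0.16, adjusted p = 0.0972), and the tissue plasminogen activator gene PLAT, at 0.45 (SE 0.15, adjusted p = 0.157). In Duroc they were FURIN, CD63 and PLAT, at 0.27 to 0.43. The Leydig cell, myoid and endothelial marker sums given above lay higher at high DFI as well, and their part in these differences was not tested. Some of the substrates had been picked by the study in these boars, so that the list is not independent evidence of its direction.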

How the data were processed

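Per the labels and methods, RNA of frozen testis tissue (RNA integrity above 8.5) was made into TruSeq RNA v2 libraries and sequenced as 50-base single-end reads. The authors aligned them with TopHat2 2.0.12 to pig build 10.2, and counted them per gene of Ensembl 75 with HTSeq without regard to strand, so reads of overlapping antisense genes cannot be told apart. The deposited values are whole-number read counts per boar, in which the lowest value is 1. Whether 0 was replaced or 1 was added is not given in the sources used here. A total of 11724 IDs had a symbol in the reference table.

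Genes above 1 CPM in at least 5 Landrace, 6 Duroc or, for comparisons between breeds, 10 boars were fitted in edgeR 4.0.16 (R 4.3.3) with TMM normalization and the quasi-likelihood test, per breed for DFI and over all 20 boars between breeds. P-values were adjusted by Benjamini-Hochberg over all genes tested, and a call is an adjusted p under 0.05. CPM are TMM-adjusted. Ratios used counts plus 0.5 and exact two-sided permutation tests in SciPy 1.17.1. Alternatives included the likelihood ratio test, DESeq2 1.42.0 and limma 3.58.1. The fits were tested on simulated data. The difference of the DFI effect between breeds was not tested.

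The genes and lists were chosen with earlier results of these data known. Named besides the 7 were up to 4 genes per family list and comparison with the smallest p and the 3 genes most alike each of the 7. The pairing of a gene with a marker list and the single-boar values of MMP13 and MMP14 were picked after the values were seen. Each boar is 1 biological replicate.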

Additional observations from a re-analysis of the deposited data

Results flagged for a closer look

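Of 28 groups examined (7 genes in 4 groups of boars), 1 held a boar whose gap to the nearest of its group exceeded the 95% critical value of Dixon's test, where chance gives about 1.4. It was TIMP1 in the Duroc high DFI boar DH4, at 5.56 CPM, with the other 5 boars of that group at 2.46 to 3.36 CPM. DH4 was also the boar with the highest Sertoli cell marker sum of its group, at 539 CPM. Without it, the logFC of TIMP1 in Duroc was 0.22 (SE 0.28, edgeR quasi-likelihood adjusted p = 0.724). Leaving out the low DFI boar DL3 instead also gave 0.22.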

How the results depend on the processing

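Over the comparisons that did not choose a gene, the count of genes called was 0 in all but 2 of 74 alternatives, and that of ratios in all 50. The exceptions were 1 call (ADAMTS4) in Landrace with the likelihood ratio test, and 1 (ADAMTS4) between the breeds at high DFI without DH3, so that leaving out 1 boar gave 0 to 1. Over all genes the quasi-likelihood test, the likelihood ratio test, DESeq2 and limma called 0, 767, 842 and 1 in Landrace and 2, 376, 869 and 67 in Duroc. Of 388 tested logFC values, 18 changed sign, to at most 0.39, and of 129 given without a test, 0 did. Of 298 tested ratios, 14 changed sign, to at most 0.127. These sign changes had an adjusted p of at least 0.651. Of 202 ratios given without a test, 15 changed sign, the largest being MMP2 over TIMP3 in Landrace, at 0.45 over the 6 boars with consecutive numbers.

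Between the breeds at low DFI, MMP19 was -0.39 with limma, ADAM33 0.033 with limma and 0.047 against the Landrace low boars with other numbers, TIMP1 -0.066 against these boars, and TIMP3 0.0035 in the fit of low DFI boars alone. Without 1 boar, the ranges were -0.16 (DL2) to 0.47 (DL3) for MMP19, -0.19 to 0.10 for ADAM33 and -0.092 to 0.078 for TIMP3 at low DFI, and -0.081 to 0.22 for ADAM33 and -0.27 to 0.15 for TIMP1 at high DFI. With medians, ADAMTS9 over TIMP3 was 0.0048 and ADAM33 over TIMP1 0.0060 between the breeds, and ADAM33 over TIMP3 was -0.027 in Landrace, or -0.13 over the 6 boars with consecutive numbers. Without 1 boar, ADAM33 over TIMP3 in Landrace ranged from -0.074 to 0.18, ADAM33 over TIMP1 between the breeds from -0.13 to 0.10 and MMP2 over TIMP1 in Duroc from -0.031 to 0.25. The cause of these changes was not tested.

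No paired analysis was possible because the replicate numbers only follow the order of the sample records. The number series and low DFI cannot be told apart in 3 Landrace boars. With 4 to 6 boars per group and 38 to 268 reads on TIMP1, small differences were not detectable.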

Other observations

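MMP13, a collagenase gene, fell into separate levels among the Landrace boars, each with boars of both DFI groups. It was 0.151 CPM in LL1, 0.165 CPM in LL2, 0.260 CPM in LL3 and 0.0512 CPM in LH4, but 3.14 CPM in LL4, 4.47 CPM in LL5, 8.57 CPM in LH1, 2.93 CPM in LH2 and 3.49 CPM in LH3. All 11 Duroc boars expressed MMP13, at 7.97 to 10.48 CPM in the low and 5.601 to 7.36 CPM in the high DFI group, without overlap, as 1.27% of all genes were in this direction. The low level thus occurred in 4 of 9 Landrace and 0 of 11 Duroc boars, in boars with consecutive and with other sample numbers. These low values lie near the floor of the counts, whose lowest deposited value is 1.

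MMP14 was 3.38 CPM in the Landrace low boar LL4 and 12.6 to 17.6 CPM in the other 4 boars of its group. LL4 was also the Landrace low boar with the highest TIMP1 level, 3.85 CPM.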
